A study of Drosophila melanogaster with 42 samples.

Results

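Delta B is a Drosophila mutant that lacks the conserved stretch of the fat gene (ft) that its label calls B. Its transcriptome was set against wild type in wing imaginal discs of third-instar larvae, all read on the NovaSeq 6000. The comparison holds the 4 libraries labelled delta B and the 3 wild type libraries of that sequencer, 7 of the 42 in the series, taken by their labels alone. The wild type carries the stock name w1118.csvd111 in its library names. The limits of region B, the sex and exact age of the larvae and the number of discs per library are not given in the sources used here, nor whether libraries came from separate crosses, so p-values measure the spread between libraries. Of the other deletions named for conserved regions, delta A (4 libraries), delta C (3), delta E (4) and delta F (3) were read on the same sequencer and are used below only to show where delta B differs.

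Fat is a giant atypical cadherin that binds the cadherin Dachsous on neighbouring cells and signals through its intracellular domain. It restrains growth through the Hippo pathway, in which the kinases Hippo and Warts keep the co-activator Yorkie out of the nucleus, and it orients cells in the plane of the tissue. In the wing disc, loss of Fat is known for overgrowth, raised transcription of Yorkie targets and misoriented hairs.

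The libraries labelled delta B are of 2 kinds, which matters for every value that follows. Ribosomal RNA genes, meaning the 46 symbols that contain rRNA, took 12.1%, 11.5% and 13.4% of the counts in delta B 1, 2 and 3 and 0.792% in delta B 4. In wild type 1, 2 and 3 they took 1.07%, 0.842% and 1.52%. Delta B 1 to 3 thus averaged 12.3 ± 0.996% and wild type 1.14 ± 0.343% (SD, n = 3 each), and delta B 4 lay below every wild type library. One annotated copy of the large-subunit gene, 28SrRNA:CR45837, made most of the difference, with 9.46%, 9.12% and 10.9% of the counts in delta B 1 to 3 and 0 counts in delta B 4 and in all 3 wild type libraries. The same copy took 13.9% and 13.7% of the counts in the 2 wild type libraries that were read on another sequencer, the NovaSeq X Plus. Copies of ribosomal genes are nearly identical, so which copy received the reads is uncertain.

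**Figure D1:**
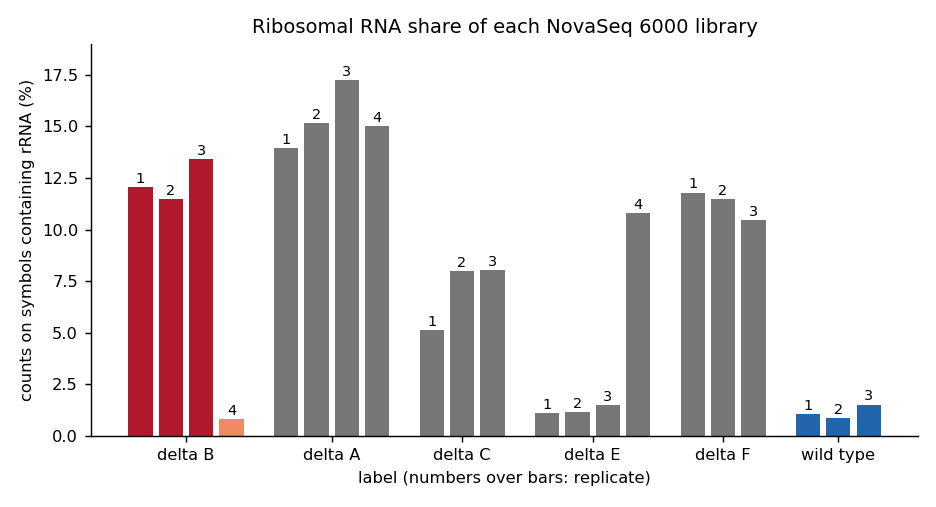
Share of each NovaSeq 6000 library's counts on the 46 symbols containing rRNA, in percent, 1 bar per library with its replicate number above it. Delta B 1 to 3 stand at 11.5% to 13.4% while delta B 4 at 0.792% stands with the wild type libraries at 0.842% to 1.52%.

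All libraries of delta A, C and F were over 3% on these symbols, from 5.11% in delta C 1 to 17.2% in delta A 3. Delta E divided as delta B did, with 1.09%, 1.16% and 1.49% in replicates 1 to 3 and 10.8% in replicate 4. Because all 3 wild type libraries were under 3%, the effect of genotype and that of whatever sets this share cannot be told apart for delta B 1 to 3, and only delta B 4 can be set against wild type at a like share. Totals ran from 20074186 to 48392354 counts in the 7 libraries.

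Across genes, the library labelled delta B 4 resembled wild type more than it resembled the other libraries of its label. Whether that label is right was not tested, and every value over all 4 libraries takes it as given. The Spearman correlation of log2 levels across genes, given as a description, was 0.994 between delta B 4 and wild type 1, 0.980 with wild type 2 and 0.975 with wild type 3, against 0.923, 0.919 and 0.915 with delta B 1, 2 and 3. Delta B 1 to 3 correlated with each other at 0.989 to 0.993. Delta B 4 and wild type 1 were closer than wild type 1 was to wild type 2 (0.982) or wild type 3 (0.977). They were not the same library, since their counts differed far beyond sampling noise (chi-square 24.2 per degree of freedom over 9383 genes). That value was 57.8 between wild type 1 and 2 and 42.1 between delta B 1 and 2. It rises with the number of counts, so these values do not rank the pairs by likeness. Delta B 4 and wild type 1 had the fewest counts of the 7 libraries, 20074186 and 21438604.

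Levels are given as CPM, counts per 1000000 of the scaled library total. A few genes that were on in some libraries and off in others set delta B 4 beside wild type 1. The secretory-pathway gene p24-2 had 219, 222 and 195 CPM in delta B 1 to 3 and 874 CPM in delta B 4, against 907, 0 and 0 CPM in wild type 1, 2 and 3. Its neighbour eca has a similar sequence, so their division is uncertain. CG18853 was at 0 in delta B 1 to 3 and at 116 CPM in delta B 4, against 115, 0 and 0 CPM in the wild type libraries. Cadps, a gene for a protein that primes dense-core vesicles, had 0.565, 0.714 and 1.23 CPM in delta B 1 to 3 and 166 CPM in delta B 4, against 99.0, 4.26 and 6.44 CPM in wild type. CG46312 was at 0 in delta B 1 to 3 and at 51.1 CPM in delta B 4, against 41.1 to 80.2 CPM in wild type. Among the 7 libraries, the high ones in the first 3 of these genes were delta B 4 and wild type 1. In p24-2 delta B 1 to 3 were at an intermediate level. CG18853 was also on in delta A (90.2 to 116 CPM), delta C (125 to 143 CPM) and delta F (108 to 113 CPM). In delta E it ran from 0 to 111 CPM. Its level in delta B 4 was thus not particular to wild type 1. In CG46312 delta B 4 stood with all 3 wild type libraries.

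Over all 4 delta B libraries, 3280 of 10338 genes tested (31.7%) differed from wild type at an adjusted p under 0.05 in edgeR's quasi-likelihood test, 1994 higher (19.3%) and 1286 lower (12.4%) in delta B. With delta B 4 given a mean of its own, delta B 1 to 3 differed in 5832 genes (56.4%), 2927 higher (28.3%) and 2905 lower (28.1%). Of the 3280 genes, 3274 were also called for delta B 1 to 3, all in the same direction. Levels did not overlap between the groups in 3105 genes (30%) over all 4 libraries and in 7138 (69%) without delta B 4. The delta B 4 level lay inside the wild type range in 2676 of the 5832 genes (45.9%), beyond it on the side of delta B 1 to 3 in 2616 and on the other side in 540. Among those 5832 genes the median absolute log2 difference from wild type was 1.19 for delta B 1 to 3 and 0.18 for delta B 4. The genes were picked by the difference of delta B 1 to 3, which favours a larger value there. The first value is fitted, and the second compares CPM with 0.5 added to both sides. The count of 3280 also depended on single wild type libraries: leaving out wild type 2 gave 109, wild type 3 gave 204 and wild type 1 gave 1765. It was 10 with a term for libraries over 3% ribosomal RNA, called the class term below. On this sequencer only delta B and delta E held libraries on both sides of 3%. The term was thus set by delta B 4 and delta E 4 against the others of their labels. Under it the delta B value leans on delta B 4, which resembled wild type, so the loss of calls says little of delta B 1 to 3. A fit of only these 7 libraries called 0 genes over all 4, with 4084 at an unadjusted p under 0.05, while DESeq2 on the 21 libraries of the sequencer called 4226.

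Transcript length moved with the same division of libraries. Each gene's log2 level was taken as its deviation from the gene's mean over the 21 libraries of the sequencer. Per doubling of the longest annotated transcript this deviation changed by -0.06, -0.09 and -0.01 in delta B 1 to 3 and by 0.28 in delta B 4. In wild type 1 to 3 it changed by 0.34, 0.32 and 0.37. A value near 0 thus marks a library like the average of the 21. Of 4 equal groups of genes by length, in that with the shortest transcripts (123 to 1168 bases) the median log2 difference from wild type was 0.60 for delta B 1 to 3 and 0.05 for delta B 4. In that with the longest (3209 to 71382 bases) it was -0.87 for delta B 1 to 3 and -0.13 for delta B 4. Long genes were thus lower and short genes higher in delta B 1 to 3 than in wild type, and delta B 4 showed little of it. Whether length, RNA quality or ribosomal RNA depletion had a part in a gene's difference was not tested. Of 95 genes called over all 4 libraries among the 115 examined singly, 70 were still called with the length trend removed and 1, wbl, with the class term. The class term ended every other such call named below. Over all 4 libraries this term leans on delta B 4, so it cannot separate genotype from ribosomal RNA share in delta B 1 to 3. Its values are given mainly where it turned a sign.

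**Figure D2:**
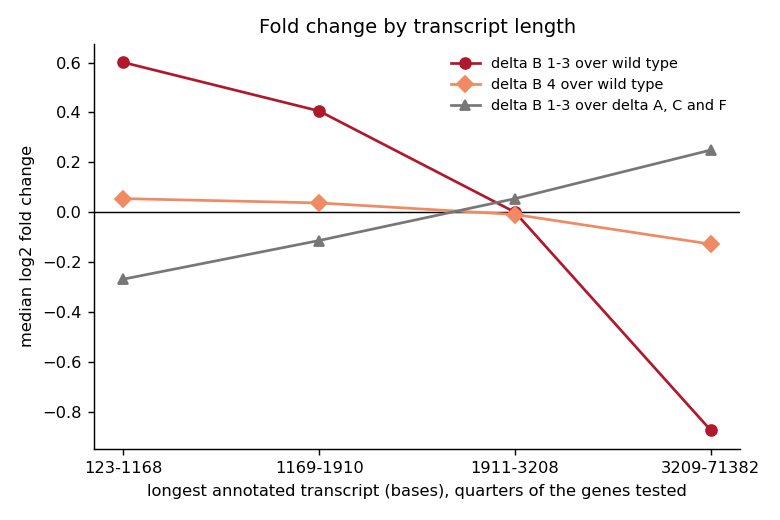
Median log2 fold change of the genes tested in 4 equal groups by longest transcript length, for delta B 1 to 3 over wild type, delta B 4 over wild type and delta B 1 to 3 over delta A, C and F. Delta B 1 to 3 over wild type falls to -0.87 in the longest group against 0.60 in the shortest, and delta B 4 stays between -0.13 and 0.05.

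The mutated gene comes first. Transcripts of ft (FBgn0001075, chromosome 2L, 4198404 to 4221796 on the minus strand of dm6) stood at 247, 231 and 283 CPM in delta B 1 to 3 and at 358 CPM in delta B 4, against 454, 588 and 676 CPM in wild type. Every delta B library was below every wild type library, delta B 4 included. The log2 difference was -1.03 over all 4 (SE 0.28, adjusted p = 0.0198) and -1.17 without delta B 4 (SE 0.30, adjusted p = 0.00376). In delta A, C and F, which lie in the same class as delta B 1 to 3, ft averaged 283 ± 85.6 CPM (SD, n = 10), and delta B 1 to 3 did not pass against them (log2 -0.09, adjusted p = 0.818). With the class term ft was at -0.33 (adjusted p = 0.794), and with the length trend removed its sign turned to 0.76 (adjusted p = 0.0874); its longest transcript has 16852 bases. Counts are per gene and cover the part of ft that was not deleted, so this level is no check of the deletion.

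Among the 11 genes tested of the Fat and Dachsous pathway, 2 rose and 4 fell over all 4 libraries, at a median of -0.80. Without delta B 4, 2 rose and 6 fell, at a median of -1.10. Of all genes 31.7% were called over all 4 libraries and 56.4% without delta B 4. The medians over all genes tested were 0.03 in both comparisons, and the list's median was 0.04 with the length trend removed and 0.02 with the class term. The ligand gene ds (Dachsous) had 171, 161 and 186 CPM in delta B 1 to 3 and 1313 CPM in delta B 4, against 1519.5, 1404 and 1684 CPM in wild type. Delta B 1 to 3 were below wild type (log2 -3.15, adjusted p = 0.000419), delta B 4 was just under the wild type range, and over all 4 the difference did not pass (adjusted p = 0.0602). The atypical myosin gene d (Dachs), which Fat removes from the membrane, had 272, 299.6 and 329.6 CPM in delta B 1 to 3 and 616 CPM in delta B 4, against 688, 730.1 and 654 CPM in wild type. For d the difference was log2 -0.86 over all 4 (adjusted p = 0.0468). The call ended with the length trend removed (log2 -0.15, adjusted p = 0.218) and with the class term, where the log2 was 0.017 (adjusted p = 0.999). The gene d was higher in delta B 1 to 3 than in delta A, C and F (log2 0.79, adjusted p = 0.0239).

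The palmitoyltransferase gene app (Approximated), which localises Dachs, fell to 41.0, 39.9 and 43.3 CPM in delta B 1 to 3 and stood at 86.0 CPM in delta B 4, against 105, 97.9 and 100.1 CPM in wild type. For app the difference was log2 -0.94 over all 4 (adjusted p = 0.0262). With the length trend removed the log2 was 0.040 and the call ended (adjusted p = 0.746). The WD40 protein gene wap (Wings apart) was at 131, 115 and 119 CPM in delta B 1 to 3 and at 233 CPM in delta B 4, against 230.3, 251 and 302 CPM in wild type. For wap the difference was log2 -0.80 (adjusted p = 0.0216). For app delta B 4 lay just under the wild type range and for wap inside it. The 2 genes that rose were Dlish, a partner of Dachs (log2 0.63), and lft. The gene lft (Lowfat), whose product binds Fat and Dachsous and stabilises them, rose to 120.1, 131 and 132 CPM in delta B 1 to 3 and to 91.4 CPM in delta B 4, against 64.7, 64.1 and 70.1 CPM in wild type. For lft the difference was log2 0.84 over all 4 (SE 0.19, adjusted p = 0.0126). All 4 delta B libraries exceeded wild type, and lft was still called with the length trend removed (log2 0.41, adjusted p = 0.0176) but not with the class term (log2 0.40, adjusted p = 0.413).

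**Figure D3:**
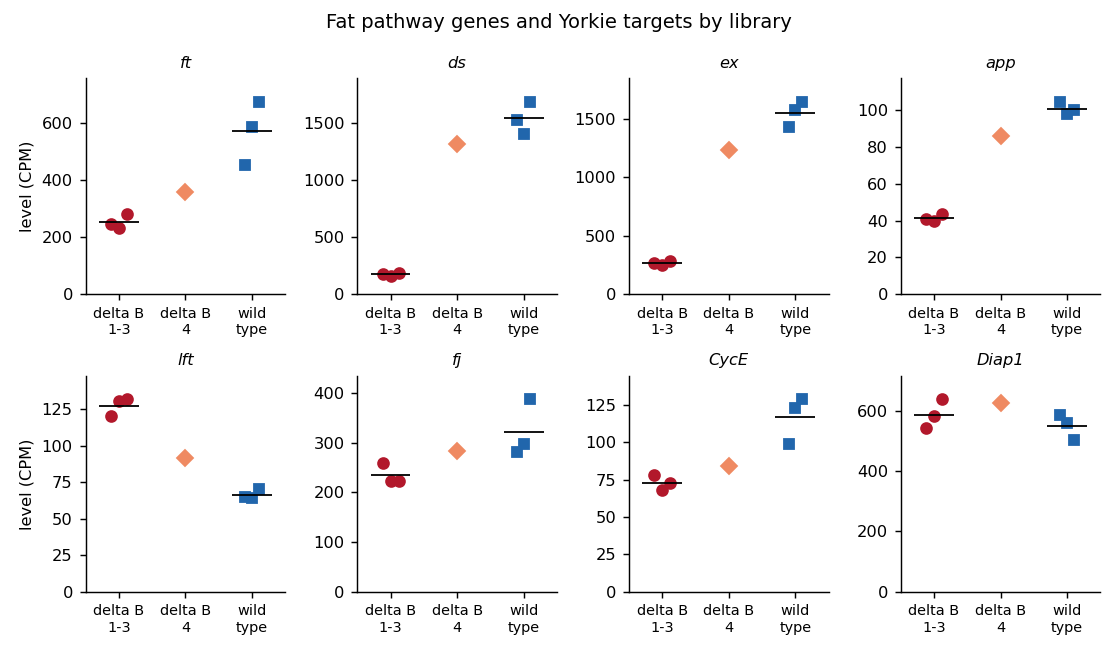
Levels in CPM of 8 genes of the Fat pathway or among Yorkie targets in each library: delta B 1 to 3 (circles), delta B 4 (diamond) and wild type 1 to 3 (squares), with a line at the mean of the 3 libraries. In ds, ex and app delta B 4 stands nearer to wild type than to delta B 1 to 3. In these genes and in ft, lft and CycE it lies between the 2 groups without reaching the wild type range.

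Of the 14 Yorkie targets tested, none rose and 2 fell over all 4 libraries, ex and CycE, and 8 fell without delta B 4. The medians were -0.55 and -0.66 (0.05 with the class term). Of all genes 12.4% fell over all 4 and 28.1% without delta B 4. The 2 of 14 are near that share and the 8 of 14 above it. The Hippo pathway gene ex (Expanded; FBgn0004583, chromosome 2L, 431227 to 448701, plus strand), a Yorkie target whose product also feeds back on Warts, had 263, 248 and 280.5 CPM in delta B 1 to 3 and 1228 CPM in delta B 4. In wild type 1 to 3 ex had 1428, 1574 and 1647 CPM. All delta B libraries were below wild type, delta B 4 by 0.34 on the log2 scale and delta B 1 to 3 by 2.55 (log2 -1.62 over all 4, SE 0.53, adjusted p = 0.0322). It was still called with the length trend removed (log2 -0.86, adjusted p = 0.0101) and not with the class term (log2 -0.27, adjusted p = 0.748).

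Against delta A, C and F, which averaged 179.8 ± 67.1 CPM of ex (SD, n = 10), delta B 1 to 3 were at log2 0.67 (adjusted p = 0.151). The cyclin gene CycE was at 78.0, 68.3 and 72.5 CPM in delta B 1 to 3 and 83.8 CPM in delta B 4, against 98.8, 123 and 129 CPM in wild type, with no overlap (log2 -0.63, adjusted p = 0.0146). The call of CycE ended with the length trend removed (log2 -0.13, adjusted p = 0.334) and with the class term (log2 -0.34, adjusted p = 0.514). The Golgi kinase gene fj (Four-jointed) was at 258, 223, 223 and 283 CPM in delta B 1 to 4, against 281, 298 and 388 CPM in wild type, and did not pass (log2 -0.39, adjusted p = 0.143). Neither did the apoptosis inhibitor Diap1 (log2 0.12, adjusted p = 0.367), the growth regulator Myc (log2 -0.47, adjusted p = 0.140) nor the ligand wg (Wingless; log2 -0.05, adjusted p = 0.801). With the length trend removed Myc turned sign and was called higher in delta B (log2 1.07, adjusted p = 0.0464). For Diap1 the libraries overlapped, with 541, 580.4, 637 and 626 CPM in delta B 1 to 4 and 584, 559 and 502 CPM in wild type. Against delta A, C and F it was higher in delta B 1 to 3 by 0.25 on the log2 scale (adjusted p = 0.0487).

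In the Hippo kinase cassette and its regulators 1 of 24 genes rose and 3 fell over all 4 libraries, and 3 rose and 11 fell without delta B 4 (medians -0.23 and -0.30). Of all genes tested 19.3% rose and 12.4% fell over all 4 libraries, and 28.3% rose and 28.1% fell without delta B 4. The falls were thus near the background over all 4 libraries and above it without delta B 4. The rises were below it in both. The gene that rose over all 4 was mats, the Warts cofactor (log2 0.42, adjusted p = 0.0487; log2 -0.016, adjusted p = 0.996, with the class term), with 95.2, 103 and 104 CPM in delta B 1 to 3 and 67.0 CPM in delta B 4, against 66.4 to 70.6 CPM in wild type. Those that fell were ex, sd (Scalloped, the DNA-binding partner of Yorkie; log2 -0.64, adjusted p = 0.0449) and Hipk, a kinase that promotes Yorkie activity (log2 -1.41, adjusted p = 0.0290). The call of sd ended and its sign turned with the class term (log2 0.030, adjusted p = 0.992) and with the length trend removed (log2 0.32, adjusted p = 0.0871). With the length trend removed those of Hipk (log2 -0.043, adjusted p = 0.780) and mats (log2 0.17, adjusted p = 0.159) ended too. The yki gene had 127, 146 and 138 CPM in delta B 1 to 3 and 81.2 CPM in delta B 4, against 77.3, 81.2 and 76.9 CPM in wild type, and did not pass (log2 0.65, adjusted p = 0.306).

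Planar polarity genes moved in both directions, with 1 of 6 core genes and 4 of 8 genes of wing hairs called over all 4 libraries, against 31.7% of all genes. The core gene called was stan (Flamingo), a cadherin, at 35.1, 36.6 and 45.6 CPM in delta B 1 to 3 and 96.4 CPM in delta B 4, against 117, 121 and 152 CPM in wild type. For stan the difference was log2 -1.28 (adjusted p = 0.0449). The call ended and the sign turned with the class term (log2 0.027, adjusted p = 0.999) and with the length trend removed (log2 0.18, adjusted p = 0.20). Of 8 genes that act on wing hairs downstream, 3 rose and 1 fell. The hair gene mwh (multiple wing hairs) was among those that rose, with 4.89, 6.2 and 16.9 CPM in delta B 1 to 3 and 1.28 CPM in delta B 4, against 3.98, 1.66 and 1.06 CPM in wild type. For mwh the difference was log2 1.71 (adjusted p = 0.0426). It was also higher in delta B 1 to 3 than in delta A, C and F (log2 2.40, adjusted p = 0.00019), whereas delta B 4 lay inside the wild type range. The effector fy (Fuzzy; log2 0.76, adjusted p = 0.0176) and the myosin light chain sqh (log2 1.04, adjusted p = 0.0202) rose in all 4 libraries, while frtz (Fritz) fell (log2 -0.43, adjusted p = 0.0233). The call of frtz ended with the length trend removed (log2 -0.059, adjusted p = 0.539).

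Among genes of cell polarity and adhesion, most of the basolateral list fell in delta B, and fewer of the other lists passed. Of 12 basolateral and septate junction genes 8 fell and none rose over all 4 libraries (12.4% of all genes fell), and 9 fell and 1 rose without delta B 4 (28.1% and 28.3%), at medians of -0.82 and -1.12. The tumour suppressor dlg1 (Discs large) had 49.2, 47.3 and 48.8 CPM in delta B 1 to 3 and 357 CPM in delta B 4, against 417, 419 and 495 CPM in wild type. For dlg1 the difference was log2 -1.82 (adjusted p = 0.0486). Its partner scrib had 113, 112 and 120.4 CPM in delta B 1 to 3 and 528 CPM in delta B 4, against 655, 721 and 746 CPM in wild type (log2 -1.70, adjusted p = 0.0387), and the third member of that module, l(2)gl, was at log2 -1.32 (adjusted p = 0.0318). In all 3, delta B 4 was below the wild type range by much less than delta B 1 to 3 were. Against delta A, C and F none of the 12 passed for delta B 1 to 3, where 17% of all genes did. Over wild type the list's median was -0.06 with the length trend removed and -0.07 with the class term.

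The apical and adherens junction list had 3 of 13 genes down over all 4 libraries and 9 down and 1 up without delta B 4, among them the Crumbs partner sdt (Stardust; log2 -1.37, adjusted p = 0.0437), whose call ended with the length trend removed (log2 -0.40, adjusted p = 0.0623). Basement membrane genes had 2 of 8 down and 6 of 8 without delta B 4 (medians -1.27 and -1.84). Of all genes 12.4% fell over all 4 libraries and 28.1% without delta B 4, which is the background for both lists. The laminin gene LanA had 97.6, 95.0 and 105 CPM in delta B 1 to 3 and 336 CPM in delta B 4, against 418, 387 and 439 CPM in wild type. For LanA the difference was log2 -1.39 (adjusted p = 0.0423), and the call ended with the length trend removed (log2 -0.11, adjusted p = 0.324).

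Heat shock genes had the largest list median, and most stood high in delta B 1 to 3 and not in delta B 4. Of 10 inducible Hsp70 and large chaperone genes, 9 rose over all 4 libraries and the same number without delta B 4. Over all genes 19.3% and 28.3% rose. In delta B 1 to 3, 9 were also higher than in delta A, C and F, against 9.62% of all genes. The Hsp70 copy Hsp70Ab (FBgn0013276, chromosome 3R, 11958535 to 11960909, plus strand) had 3364, 1452 and 1400.2 CPM in delta B 1 to 3 and 2.82 CPM in delta B 4, against 2.30, 0.846 and 0.959 CPM in wild type. In delta A, C and F it averaged 95.4 ± 118 CPM (SD, n = 10). The 6 Hsp70 copies are nearly identical, so only their sum is certain: 7834, 3165 and 2909 CPM in delta B 1 to 3 and 4.49 CPM in delta B 4, against 3.73, 1.61 and 1.54 CPM in wild type. That sum was 0.737%, 0.293% and 0.248% of the counts in delta B 1 to 3. The highest of the other deletions was delta A 3, at 575 CPM.

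Hsp70Aa and Hsp70Ba had 0 counts in all 3 wild type libraries. They were also at 0 in delta B 4, and no fold is given for either, since the division of reads among the copies is uncertain. With both set against a floor of 3 counts over the wild type group, the median log2 of the 10 genes was 9.90 over all 4 and 10.32 without delta B 4, against fitted medians of 10.05 and 10.47. The related gene Hsp68 had 992, 356 and 311 CPM in delta B 1 to 3 and 5.37 CPM in delta B 4, against 4.98, 2.85 and 4.45 CPM in wild type. For Hsp68 the difference without delta B 4 was log2 7.08 (SE 0.96, adjusted p = 5.44e-05).

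The co-chaperone DnaJ-1 had 317, 269.5 and 281 CPM in delta B 1 to 3 and 37.0 CPM in delta B 4, against 40.9, 41.6 and 46.1 CPM in wild type. Its rise without delta B 4 was log2 2.75 (SE 0.11, adjusted p = 1.76e-10) over wild type and 2.41 (adjusted p = 3.1e-12) over delta A, C and F, where it averaged 54.8 ± 4.52 CPM (SD, n = 10). Hsp83, the fly Hsp90, had 8781, 8979.8 and 8859 CPM in delta B 1 to 3 and 5587 CPM in delta B 4, against 4973, 4613 and 5420.4 CPM in wild type. For Hsp83 the difference was log2 0.83 without delta B 4 (adjusted p = 0.000349). For Hsp68, DnaJ-1 and Hsp83 delta B 1 to 3 stood far above every other library, and delta B 4 was within or next to the wild type range. The mitochondrial chaperone Hsp60A was the 1 gene of the list not called, and the constitutive Hsc70-4 did not pass either (log2 -0.44, adjusted p = 0.728).

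**Figure D4:**
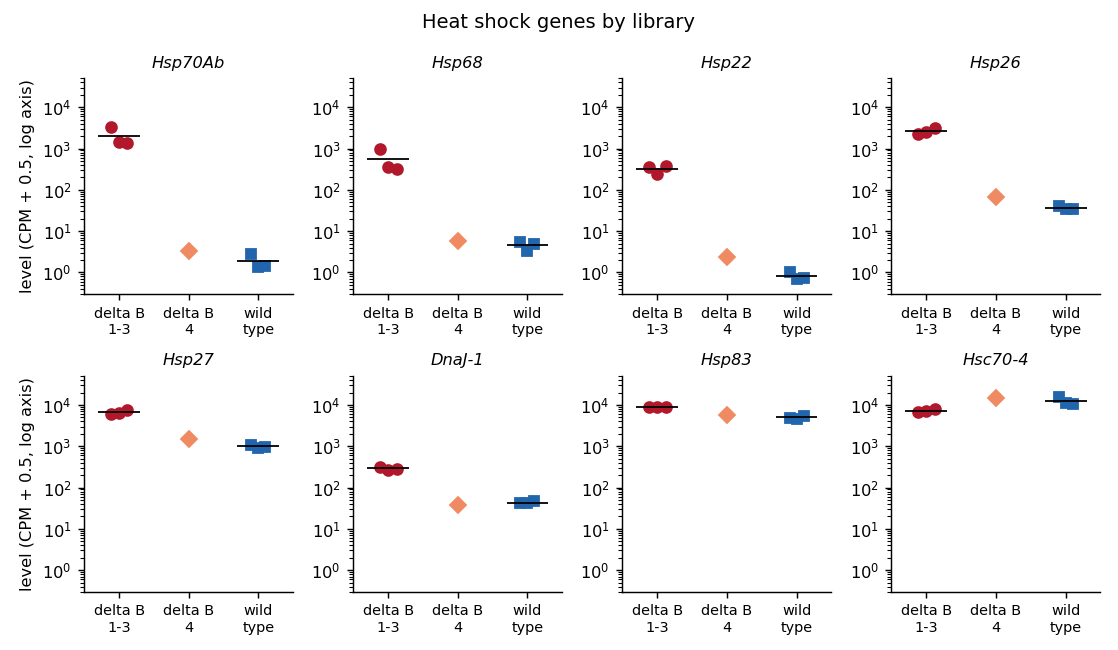
Levels of 8 heat shock genes in each library as CPM + 0.5 on a log axis, for delta B 1 to 3 (circles), delta B 4 (diamond) and wild type (squares), with a line at the mean of 3 libraries. Hsp70Ab and Hsp68 are at 311 CPM or more in delta B 1 to 3 and at 5.37 CPM or less in delta B 4 and wild type.

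Small heat shock genes, whose products hold unfolded proteins, had 6 of 7 members up over all 4 libraries and 7 of 7 without delta B 4. Over all genes 19.3% and 28.3% were up. Hsp22, a mitochondrial form, had 365, 238 and 373 CPM in delta B 1 to 3 and 1.85 CPM in delta B 4, against 0.503, 0.197 and 0.240 CPM in wild type. For Hsp22 the difference was log2 10.06 without delta B 4 (adjusted p = 1.46e-05). Hsp26 had 2244, 2506 and 3097 CPM in delta B 1 to 3 and 67.7 CPM in delta B 4, against 40.8, 33.6 and 33.1 CPM in wild type. Delta B 4 was above all wild type libraries in both, at a small part of the level of delta B 1 to 3.

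Hsp27 was high in delta A, C and F as well, at 6645 ± 786 CPM in delta B 1 to 3 (SD, n = 3) and 5189.8 ± 984 CPM in delta A, C and F (SD, n = 10), against 993 ± 86.0 CPM in wild type (SD, n = 3). Hsp23 differed in pattern, since delta B 4 was as high as its label: 835, 896, 852 and 873 CPM in delta B 1 to 4 against 569.9, 276 and 257 CPM in wild type (log2 1.23, SE 0.25, adjusted p = 0.00808). The call of Hsp23 ended with the length trend removed (log2 0.75, adjusted p = 0.0738). Against delta A, C and F, Hsp22 (log2 4.39), Hsp26 (log2 2.12) and Hsp67Bc (log2 4.03) were higher in delta B 1 to 3. They were the 3 of 7 called, where 9.62% of all genes were higher.

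Single genes of stress signalling and cell death were also higher in delta B 1 to 3. The apoptosis list had 4 of 14 up and none down over all 4 libraries and 5 up and 2 down without delta B 4, while over all genes 19.3% and 28.3% were up, so its counts are not far from the background. The JNK and disc damage list had 5 of 12 up and 1 down, and 6 up and 2 down without delta B 4. The cell death activator rpr (Reaper) had 23.9, 29.8 and 31.3 CPM in delta B 1 to 3 and 6.78 CPM in delta B 4, against 6.66, 6.93 and 5.55 CPM in wild type. For rpr the difference was log2 2.15 without delta B 4 (SE 0.24, adjusted p = 1.11e-05). The JNK phosphatase gene puc (Puckered), a target of the pathway, had 118, 119.6 and 141 CPM in delta B 1 to 3 and 66.7 CPM in delta B 4, against 59.4, 58.9 and 74.1 CPM in wild type. For puc the difference was log2 0.98 without delta B 4 (adjusted p = 3.47e-05). Jra, the fly Jun, was higher in all 4 (log2 1.07 over all 4, adjusted p = 0.00786), with 63.1 CPM in delta B 4 against 39.4 to 58.9 CPM in wild type.

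These 3 were also higher in delta B 1 to 3 than in delta A, C and F: rpr by 1.17, puc by 1.16 and Jra by 0.93 on the log2 scale (adjusted p = 0.000205, 3.54e-07 and 0.000186). Gadd45, a stress kinase activator, had 109, 115 and 119 CPM in delta B 1 to 3 and 51.5 CPM in delta B 4, against 34.2, 17.9 and 18.3 CPM in wild type (log2 2.07 over all 4, adjusted p = 0.0089), with no overlap. The ligand egr (Eiger; log2 1.32, adjusted p = 0.00779) and the caspase genes Dronc (log2 0.76, adjusted p = 0.0112) and Drice (log2 0.63, adjusted p = 0.014) rose too, and none of these 3 passed between delta B 1 to 3 and delta A, C and F (adjusted p = 0.489, 0.712 and 0.138).

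Most genes of protein synthesis and breakdown were higher in delta B. Of 87 cytoplasmic ribosomal protein genes tested 84 rose over all 4 libraries and 86 without delta B 4, at medians of 2.11 and 2.43, and the median for delta B 4 was 0.14. RpS21 had 249.7, 311 and 316 CPM in delta B 1 to 3 and 39.5 CPM in delta B 4, against 30.6, 30.7 and 26.4 CPM in wild type. In delta A, C and F RpS21 averaged 334 ± 61.9 CPM (SD, n = 10). None of the 87 genes was called between these labels and delta B 1 to 3, where 17% of all genes were. With the length trend removed the list's median was 1.61 and with the class term 0.08. Of 73 mitochondrial ribosomal protein genes 33 rose and none fell (54 without delta B 4), of 67 nuclear respiratory chain genes 45 (53), and of 35 proteasome genes 32 (33), for example Prosbeta4 (log2 1.35, adjusted p = 0.0133). Over all genes 19.3% rose, and 28.3% without delta B 4.

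Genes of the mitochondrial genome were higher in delta B 1 to 3 than in wild type and had their list median below wild type in delta B 4. Of its 13 protein genes 5 rose over all 4 libraries and 12 without delta B 4 (median 2.30), against 19.3% and 28.3% of all genes. The median for delta B 4 was -2.33. The complex I gene mt:ND5 had 660.1, 545 and 557 CPM in delta B 1 to 3 and 14.2 CPM in delta B 4, against 21.9, 58.8 and 140.1 CPM in wild type. Delta B 4 was lowest of the 7. The SD was alike in wild type (60.5 CPM) and delta B 1 to 3 (63.2 CPM), around means of 73.6 and 587 CPM. Wild type libraries thus varied more only in relation to their mean. Over all 4 mt:ND5 was at log2 2.59 (adjusted p = 0.0433), a call that ended with the length trend removed (log2 2.26, adjusted p = 0.0539) and turned sign with the class term (log2 -1.24, adjusted p = 0.698).

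**Figure D5:**
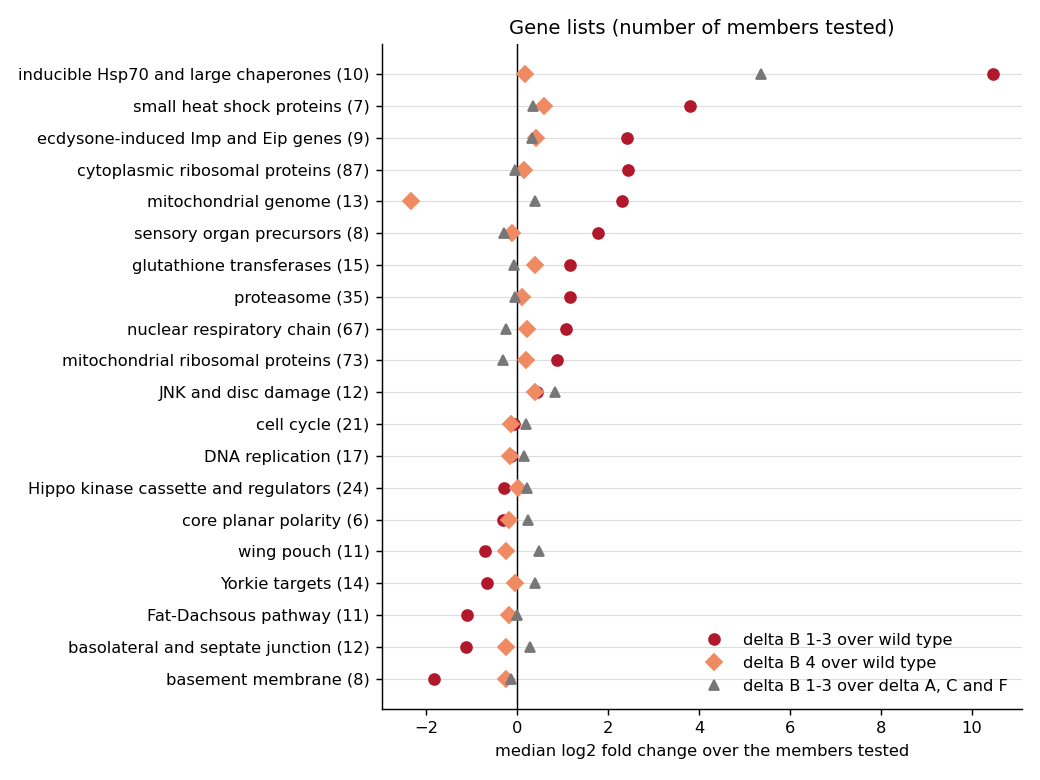
Median log2 fold change of 20 gene lists (number of members tested in brackets) for delta B 1 to 3 over wild type (circles), delta B 4 over wild type (diamonds) and delta B 1 to 3 over delta A, C and F (triangles). Delta B 4 is near 0 for most lists that stand far from 0 in delta B 1 to 3, the mitochondrial genome at -2.33 being the exception, and the inducible Hsp70 list alone is over 5 against delta A, C and F.

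Genes of the ecdysone response, the steroid programme that ends larval life, were in part higher in delta B. Of 9 Imp and Eip genes 5 rose over all 4 libraries and 8 without delta B 4, against 19.3% and 28.3% of all genes, and none fell. The gene ImpE2, induced by ecdysone in discs, had 6009, 6276 and 8012 CPM in delta B 1 to 3 and 789 CPM in delta B 4, against 442, 398 and 562 CPM in wild type. For ImpE2 the difference was log2 3.50 (SE 0.55, adjusted p = 0.00305). ImpL2, an antagonist of insulin-like peptides, had 127, 149.7 and 237 CPM in delta B 1 to 3 and 139 CPM in delta B 4, against 52.1, 15.0 and 29.4 CPM in wild type. For ImpL2 the difference was log2 2.34 (SE 0.44, adjusted p = 0.00621). Delta B 4 was above wild type in both, and in ImpL2 it was as high as delta B 1 to 3.

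Of the 12 receptor and early genes 3 rose and 2 fell over all 4. Over all genes 19.3% rose and 12.4% fell, so these counts are near the background. The early nuclear receptor Eip78C had 49.3, 50.3 and 60.8 CPM in delta B 1 to 3 and 5.24 CPM in delta B 4, against 2.97, 5.78 and 9.08 CPM in wild type. For Eip78C the difference was log2 2.80 (adjusted p = 0.0115). Hr3, a receptor of the next tier, varied within its label, at 3.89, 16.5 and 31.8 CPM in delta B 1 to 3 and 0.0881 CPM in delta B 4, against 0 to 0.564 CPM in wild type. The ecdysone receptor gene EcR was lower in every delta B library, at 118, 111 and 135 CPM in delta B 1 to 3 and 251 CPM in delta B 4, against 353, 384 and 392 CPM in wild type. For EcR the difference was log2 -1.29 (adjusted p = 0.0148), a call that ended with the length trend removed (log2 -0.11, adjusted p = 0.677) and with the class term (log2 -0.54, adjusted p = 0.514). Among cuticle tanning enzymes 4 of 5 rose, including Ddc, dopa decarboxylase (log2 3.93, adjusted p = 0.00833), and ple, tyrosine hydroxylase (log2 3.12, adjusted p = 0.0204). Against the average of the delta A, C and F labels, Ddc was higher in delta B 1 to 3 (log2 1.76, adjusted p = 0.00618). It was not above delta A, which had 19.3 to 43.6 CPM, against 9.21, 13.9 and 43.0 CPM in delta B 1 to 3. Delta C averaged 2.17 CPM and delta F 3.61 CPM. The ecdysone genes Eip78C, ImpE2 and EcR did not pass between delta B 1 to 3 and delta A, C and F (adjusted p = 0.466, 0.413 and 0.324).

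Cell cycle and DNA replication genes moved both ways. Of 21 cell cycle genes 5 rose and 3 fell over all 4 libraries, and of 17 replication genes 2 rose and 5 fell, while 19.3% of all genes rose and 12.4% fell. The short replication genes PCNA (log2 0.98, adjusted p = 0.0347) and geminin (log2 1.26, adjusted p = 0.0372) rose, though both turned negative with the class term (log2 -0.066 and -0.19), and the polymerase gene DNApol-alpha180 (log2 -1.05, adjusted p = 0.0186) and the origin gene Orc1 (log2 -0.73, adjusted p = 0.0153) fell. PCNA had 518, 555 and 504 CPM in delta B 1 to 3 and 227 CPM in delta B 4, against 224, 262 and 200.3 CPM in wild type, so delta B 4 was inside the wild type range.

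Wing disc markers were present in every library. The wing selector vg (Vestigial) had 64.2, 67.0, 73.4 and 71.8 CPM in delta B 1 to 4 against 82.5, 91.1 and 125 CPM in wild type (log2 -0.52, adjusted p = 0.165), and the pouch gene nub (Nubbin) was at 337 to 509 CPM in delta B against 508 to 732 CPM in wild type (adjusted p = 0.160). None of 11 pouch genes was called over all 4 libraries, and 4 fell without delta B 4, against 28.1% of all genes. The list median of -0.61 became 0.14 with the class term. In the hinge list 3 of 7 fell over all 4 libraries, against 12.4% of all genes. The largest fall was that of the zinc-finger gene zfh2. It had 129, 112 and 143 CPM in delta B 1 to 3 and 771 CPM in delta B 4. Wild type had 811, 953 and 1341 CPM. For zfh2 the difference was log2 -1.84 (adjusted p = 0.0430). None of 12 notum genes was called over all 4 libraries. In bulk discs fewer cells of a type and less RNA per cell cannot be told apart.

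Sensory organ precursor genes rose in 6 of 8 members over all 4 libraries, against 19.3% of all genes. The proneural gene sc (Scute) had 58.1, 53.6 and 65.5 CPM in delta B 1 to 3 and 16.7 CPM in delta B 4, against 15.8, 16.0 and 21.7 CPM in wild type. For sc the difference was log2 1.44 (adjusted p = 0.0152). Its partner ac (Achaete) was at log2 1.02 (adjusted p = 0.0252; 0.45, adjusted p = 0.180, with the length trend removed) and the precursor gene ase (Asense) at log2 3.06 (adjusted p = 0.0128). Adult muscle precursors, which lie under the notum epithelium, had 4 of 8 up and 1 down, with twi (Twist) at log2 0.57 (adjusted p = 0.0375).

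Markers of tissues that can adhere to a dissected disc were measured too, and in each list of them the share of genes called was below the 31.7% of all genes. The summed level of the 10 fat body genes was 43.1 to 149 CPM in delta B 1 to 3 and 47.4 CPM in delta B 4, against 15.5 to 27.0 CPM in wild type, with 2 of 10 called, both up. One of them was Fbp2, at 6.22, 9.41, 10.9 and 7.0 CPM in delta B 1 to 4 against 1.59, 0.705 and 1.16 CPM in wild type. Haemocyte genes summed to 82.5 to 96.7 CPM in delta B 1 to 3 and 78.7 CPM in delta B 4, against 98.8 to 154 CPM in wild type, with 2 of 10 down, among them Hml (log2 -2.19, adjusted p = 0.0407), whose call ended with the length trend removed (log2 -1.12, adjusted p = 0.0519). Differentiated muscle summed to 107 to 153 CPM in delta B 1 to 3 and 80.3 CPM in delta B 4, against 87.6 to 107 CPM in wild type, with 2 of 15 up and 1 down.

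Midgut protease genes summed to 5.37 to 14.4 CPM in delta B 1 to 3 and 0.881 CPM in delta B 4, against 0.545 to 1.13 CPM in wild type, with 2 of 8 up (median log2 2.10 as fitted and 1.57 with the 2 genes at 0 in wild type at their bounds). Salivary glue genes summed to 1.26 to 10.2 CPM in delta B 1 to 3 and 2.78 CPM in delta B 4, against 0.137 to 11.8 CPM in wild type, with none of 8 called. Tracheal genes summed to 2542 to 3145 CPM in delta B 1 to 3 and 3480.4 CPM in delta B 4, against 3353 to 3655 CPM in wild type, with 1 of 8 down. The part of these tissues in the differences above was not tested. Of the male-specific dosage compensation RNAs, lncRNA:roX1 had 529, 1074, 561 and 357 CPM in delta B 1 to 4 against 1001, 1815 and 1761 CPM in wild type, which did not pass (log2 -1.28, adjusted p = 0.192). It was lowest in delta B 4. The share of male and female discs was not tested.

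A smaller set of genes set all 4 delta B libraries apart from wild type. In 111 of the 10338 genes (1.07%), 44 higher (0.426%) and 67 lower (0.648%), the call was made with and without delta B 4 and delta B 4 itself lay at least 2-fold beyond wild type on the same side. By contrast, 288 genes (2.79%) had delta B 4 at least 2-fold from the wild type mean and outside its range, 130 higher (1.26%) and 158 lower (1.53%). The mean of delta B 1 to 3 was at that distance with no overlap in 3048 (29.5%). One of those called in all 4 libraries was CR43215, annotated as a pseudogene (FBgn0262851, chromosome X, 11589376 to 11591266, plus strand). It had 8.65, 5.60, 8.41 and 5.15 CPM in delta B 1 to 4 and 0 counts in wild type. That is at least 205-fold on a floor of 3 counts over the wild type group, and delta A, C and F averaged 0.529 ± 0.675 CPM (SD, n = 10).

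The gene wbl (Windbeutel), an endoplasmic reticulum protein of dorsoventral patterning in the egg, had 131, 143 and 155 CPM in delta B 1 to 3 and 37.6 CPM in delta B 4, against 17.2, 18 and 18 CPM in wild type. For wbl the difference was log2 2.72 (SE 0.41, adjusted p = 0.00267). Of the 115 genes examined singly, 95 were called over all 4 libraries, and wbl alone of these was still called with the class term (log2 1.39, adjusted p = 0.0436), though in delta A, C and F it averaged 149 ± 38.1 CPM (SD, n = 10). On the lower side, the calcium channel gene cac (Cacophony) had 1.40, 2.12, 2.50 and 2.47 CPM in delta B 1 to 4 against 6.53, 14.6 and 12.5 CPM in wild type. For cac the difference was log2 -2.40 (adjusted p = 0.00373), and -0.86 with the length trend removed (adjusted p = 0.309). The adenylyl cyclase gene Ac3 had 3.89, 4.55, 4.84 and 7.05 CPM in delta B 1 to 4 against 14.2, 33.7 and 37.4 CPM in wild type. For Ac3 the difference was log2 -2.49 (adjusted p = 0.0186). CG16884 had 9.35, 8.36, 7.71 and 5.64 CPM in delta B 1 to 4 against 30.4, 96.9 and 39.7 CPM in wild type. For CG16884 the difference was log2 -2.84 (adjusted p = 0.0270). In these 3 every delta B library was below every wild type library, with wild type 1 the lowest of its group. Delta A, C and F were low too for cac, at 3.05 ± 2.17 CPM, and Ac3, at 2.91 ± 1.67 CPM (SD, n = 10). Neither gene passed between them and delta B 1 to 3 (adjusted p = 0.781 and 0.285). For CG16884 they averaged 60.4 ± 57.4 CPM, and delta B 1 to 3 were at log2 -2.55 against them (adjusted p = 0.0575).

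The lactate dehydrogenase gene Ldh was the reverse case, highest in delta B 4: 18.3, 25.1 and 32.4 CPM in delta B 1 to 3 and 144 CPM in delta B 4, against 23.5, 6.99 and 5.62 CPM in wild type. The groups overlapped, since wild type 1 was above delta B 1.

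Set against delta A, C and F without any wild type library, delta B 1 to 3 differed in 1762 of 10338 genes (17%), 995 higher (9.62%) and 767 lower (7.42%), and all 4 delta B libraries in 2802 (27.1%), 1795 higher (17.4%) and 1007 lower (9.74%). The list of 10 inducible Hsp70 and large chaperone genes had the largest median there, 5.35 for delta B 1 to 3. The white gene w, the eye pigment transporter used as a marker in fly stocks and named here after its values were seen, had 8.65, 3.28 and 6.54 CPM in delta B 1 to 3 and 0.308 CPM in delta B 4, against 0.168, 0.0846 and 0.308 CPM in wild type. In delta A, C and F it averaged 1.01 ± 0.579 CPM (SD, n = 10; log2 2.71 for delta B 1 to 3 over them, adjusted p = 0.00111). In w delta B 4 again stood with wild type and apart from delta B 1 to 3.

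The cytochrome P450 gene Cyp6a17 had 7.38, 10.5 and 9.84 CPM in delta B 1 to 3 and 38.5 CPM in delta B 4, against 0.0426 ± 0.104 CPM in delta A, C and F (SD, n = 10; log2 9.63 for delta B 1 to 3, adjusted p = 0.000149). Wild type, at 32.0, 10.7 and 6.95 CPM, did not pass against delta B (adjusted p = 1.0). Neto, an auxiliary subunit of glutamate receptors, had 0 counts in all 4 delta B libraries and 2.08 ± 0.989 CPM in delta A, C and F (SD, n = 10), at least 88.4-fold higher in delta A, C and F on a floor of 3 counts over the delta B group. Wild type held 0 to 0.0282 CPM. The glutathione transferase gene GstD10 was at 7.58, 9.10 and 19.3 CPM in delta B 1 to 3 and 0.308 CPM in delta B 4, against 1.30 ± 2.15 CPM in delta A, C and F (log2 3.43 for delta B 1 to 3, adjusted p = 0.00549) and 0.197 to 0.461 CPM in wild type.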

How the data were processed

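RNA from third-instar wing discs (10 ng per library, 12 to 15 PCR cycles, paired 150-base reads) was sequenced by the authors, per the labels' protocols. The authors deposited 1 table of estimated counts, with a value for each gene and library. The submitters' processing notes name FastQC 0.10, Trimmomatic 0.33, Salmon 1.80, edgeR and dm6, without their roles. The estimated counts were rounded to whole numbers here. In edgeR 4.0.16 under R 4.3.3, the 21 libraries of the NovaSeq 6000 entered 1 quasi-likelihood fit per comparison after filterByExpr (10338 genes kept) and TMM scaling, with Benjamini-Hochberg adjustment over all genes and a threshold of 0.05. A second fit gave delta B 4 its own mean. Log2 differences of delta B 4 alone are not fitted and compare its CPM with the wild type mean CPM, 0.5 added to both. Levels are CPM on TMM-scaled library sizes. Symbols and lengths came from the BDGP6 annotation, which matched 17083 of 17208 genes. The code was tested on simulated data.

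Alternatives were DESeq2 1.42.0, its size factors in edgeR, no filter on low counts, other sets of libraries, a replicate block, no ribosomal RNA genes, a term for libraries over 3% ribosomal RNA, a length trend as offset, and leaving out each library. Members and gene lists were chosen with earlier results of these data known. Genes were named by a rule: 7 Fat and Yorkie genes whatever their p, the largest rises and falls with no overlap, genes where delta B 4 agreed or stood farthest apart, up to 4 genes per list with at least 3 calls, and the largest differences from delta A, C and F; a few were added after their values were seen, and which were printed was settled then too. Counts include PCR copies, so floors of 3 counts cover counting error only.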

Additional observations from a re-analysis of the deposited data

Results flagged for a closer look

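In 37 of the 115 genes examined singly, 1 of the 4 delta B libraries lay far from the other 3, and it was delta B 4 in all 37. The measure is the gap from that library to its nearest neighbour as a share of the whole range over delta B, with a critical value of 0.829. Chance puts about 1 in 20 groups of 4 past that value, and many of the genes were chosen for where delta B 4 lies. The share was 0.967 for ex, 0.866 for wap, 0.927 for app, 0.941 for Hsp83, 0.831 for DnaJ-1, 0.857 for Gadd45, 0.852 for RpL15, 0.869 for ATPsynbeta, 0.994 for mt:ND3, 0.91 for Cpr49Ah, 0.832 for aurB, 0.845 for PCNA and 0.848 for DNApol-alpha180. It was 0.911 for sdt, 0.969 for l(2)gl, 0.851 for cora, 0.953 for zfh2, 0.976 for ci, 0.901 for smo, 0.867 for Stat92E, 0.995 for hop, 0.974 for Apc, 0.888 for Ldh, 1 for CG18853 and 0.996 for Cadps. For the remaining genes it was 1 for CG46312, 0.96 for p24-2, 0.979 for kto, 0.862 for Hsc70-4, 0.901 for Cyp6a17, 0.833 for d, 0.978 for ds, 0.958 for LanA, 0.919 for Hml, 0.885 for tup, 0.994 for dlg1 and 0.979 for scrib.

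The share of counts on ribosomal RNA symbols gave 0.846, again with delta B 4 apart. Of 15 summed marker lists 5 were past the value: 0.926 for the notum, 0.832 for the peripodial epithelium and 0.928 for the eye-antennal disc, with delta B 4 apart, 0.919 for the fat body with delta B 3 apart, and 0.83 for salivary glue with delta B 2 apart.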

How the results depend on the processing

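Over all 4 delta B libraries the 3280 genes became 0 in a fit of only the 7 libraries (4084 at an unadjusted p under 0.05; DESeq2 called 4226), 1407 in a fit of all 42 libraries and 10 with a term for the ribosomal RNA class. Leaving out 1 library gave 109 to 5823: 1107, 554, 530 and 5823 without delta B 1, 2, 3 and 4, and 1765, 109 and 204 without wild type 1, 2 and 3. The 5832 genes of delta B 1 to 3 became 1045 with the class term and stayed at 4916 to 6293 under the others. For delta B 1 to 3 the class term did not lean on delta B 4, which had its own mean. It was set by delta E 4 against delta E 1 to 3 alone. The 2802 genes against delta A, C and F became 1710 with the replicate block and 1754 to 2650 on leaving out 1 delta B library, lowest without delta B 4; higher genes made up 53.6% of them with the class term and 55.5% in a fit of only those groups, against 64.1%. Same-numbered libraries deviated together in 1 of 3 pairs (r from -0.204 to 0.188). Deviations were taken from the mean of all 4 delta B libraries, delta B 4 included. With wild type 1, r was -0.204, -0.147 and -0.157 for delta B 1, 2 and 3, whatever the number. The measure could thus not decide whether the numbers pair libraries. The replicate block gave 3160 genes over all 4 (53.2% higher, against 60.8%).

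Some log2 differences over all 4 turned sign. With the length trend removed they were 0.76 for ft, 1.07 for Myc (adjusted p = 0.0464, the only call among them), 0.040 for app, 0.32 for sd, 0.069 for cora, 0.13 for pan, 0.44 for sls and 0.18 for stan. With the class term they were 0.030 for sd, -0.016 for mats, -0.53 for mt:ND3, -1.24 for mt:ND5, -0.066 for PCNA, -0.19 for geminin, 0.019 for ci, 0.0021 for hop, 0.017 for d and 0.027 for stan. Cadps was at -5.45 without delta B 4 and at 2.97 without wild type 1, against 0.20. Delta B 4 alone over wild type, chosen after seeing the data and with no test, was at -0.044 for mats, -0.36 for Hsp70Bb, -0.21 for DnaJ-1, -0.12 for RpL15, -1.56 for mt:ND3, -2.33 for mt:ND5, -0.17 for Eip78C, -0.64 for Hr4, -0.014 for PCNA, -0.067 for geminin, -0.093 for sc, -0.41 for ac, -0.019 for edl, -0.11 for twi, -0.62 for mwh, -0.57 for Hr3 and -0.064 for GstD10. The cause was not tested. Of the 95 genes called among the 115 examined singly, 70 were still called with the length trend removed, 87 with the replicate block, 14 without wild type 2 and 1 with the class term.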
